A study of Mus musculus with 217 samples.

Results

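The 28 genes described here encode the enzymes that make cholesterol and the proteins that sense, move, esterify and remove it. They were listed by symbol for their place in the pathway, with no threshold on their values, and they are 28 of the 54532 genes in the count tables, present at both ages. By role, 7 act early in synthesis (Acat2, Hmgcs1, Mvk, Pmvk, Mvd, Idi1, Fdps) and 11 act late in synthesis (Fdft1, Sqle, Lss, Cyp51, Tm7sf2, Msmo1, Nsdhl, Hsd17b7, Ebp, Sc5d, Dhcr7). A further 5 belong to sterol sensing (Insig1, Insig2, Srebf1, Srebf2, Scap), 3 to transport (Stard4, Abca1, Abcg1) and 2 to removal and esterification (Cyp46a1, Soat1). RNA-Seq was performed on the striatum and cortex of C57BL/6 mice aged 6 or 12 months, 217 libraries of 110 mice in all. LacQ140 mice, a knock-in model of Huntington disease, carry 1 normal Htt allele and 1 with an expanded polyglutamine tract behind Lac operators, and every mouse, WT included, also carried a lac repressor transgene driven by the broadly active β-actin promoter. The lactose analog IPTG lifts the repressor off the operators, so the mutant allele is expressed on IPTG and lowered in all cells with the repressor when IPTG is absent. The WT group received no IPTG, while the WT + IPTG and LacQ140 groups received it from embryonic day 5 onward. LacQ140_A mice never received IPTG. LacQ140_2M mice stopped receiving it at 2 months and LacQ140_8M mice at 8 months of age, LacQ140_8M being sampled at 12 months only. Each group held 10 mice per tissue and age, 5 females and 5 males, except that 12-month striatum of WT, LacQ140 and LacQ140_8M held 9.

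Brain cholesterol is made within the brain, because lipoproteins of the blood do not pass the barrier of its vessels, and myelin holds most of it. When membranes of the endoplasmic reticulum are low in cholesterol, Scap escorts the SREBP transcription factors, products of Srebf1 and Srebf2, to the Golgi for cleavage, and the released SREBP raises transcription of the synthesis genes; Insig1 and Insig2 hold Scap back when sterol is plentiful, and Insig1 is itself an SREBP target. Neurons dispose of cholesterol through Cyp46a1, a hydroxylase whose product can leave the brain, and Soat1 forms cholesteryl esters for storage.

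The promoters of 4 members are shown because these genes stand for the patterns described below: Hmgcs1 and Insig1 for genes that fell with IPTG in 6-month WT cortex, Mvd for those called there only when males were fitted apart, and Cyp46a1 for the member with the largest LacQ140 difference in 12-month striatum. Each sequence is from RefSeq on GRCm38.p6, 5′ to 3′ on the strand of the gene, and holds the bases upstream of the RefSeq start of transcription. On GRCm38 these are the protein-coding genes ENSMUSG00000093930 (Hmgcs1, chr13:119690379-119708260), ENSMUSG00000006517 (Mvd, chr8:122433601-122443422), ENSMUSG00000045294 (Insig1, chr5:28071363-28078662) and ENSMUSG00000021259 (Cyp46a1, chr12:108334381-108362234). Capitals mark CCAAT or its reverse ATTGG, the sterol regulatory element letters TCACNCCAC, and the E-box letters CACGTG.
Hmgcs1 promoter, chr13:119690101-119690350, plus strand: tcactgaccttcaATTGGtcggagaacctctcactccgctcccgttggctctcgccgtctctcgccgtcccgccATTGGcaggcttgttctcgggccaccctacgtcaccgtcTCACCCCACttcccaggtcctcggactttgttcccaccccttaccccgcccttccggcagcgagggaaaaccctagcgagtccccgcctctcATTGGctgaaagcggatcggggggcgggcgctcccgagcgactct
Mvd promoter, chr8:122443423-122443672, minus strand: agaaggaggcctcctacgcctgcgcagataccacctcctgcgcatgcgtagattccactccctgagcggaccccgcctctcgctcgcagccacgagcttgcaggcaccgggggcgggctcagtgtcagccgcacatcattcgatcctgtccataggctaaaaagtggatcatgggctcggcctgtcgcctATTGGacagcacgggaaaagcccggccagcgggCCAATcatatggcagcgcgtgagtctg
Insig1 promoter, chr5:28071162-28071362, plus strand: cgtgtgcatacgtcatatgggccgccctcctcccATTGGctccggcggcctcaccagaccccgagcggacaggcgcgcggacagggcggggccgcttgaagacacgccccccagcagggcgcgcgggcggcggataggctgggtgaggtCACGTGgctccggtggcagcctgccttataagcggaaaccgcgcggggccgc
Cyp46a1 promoter, chr12:108334066-108334315, plus strand: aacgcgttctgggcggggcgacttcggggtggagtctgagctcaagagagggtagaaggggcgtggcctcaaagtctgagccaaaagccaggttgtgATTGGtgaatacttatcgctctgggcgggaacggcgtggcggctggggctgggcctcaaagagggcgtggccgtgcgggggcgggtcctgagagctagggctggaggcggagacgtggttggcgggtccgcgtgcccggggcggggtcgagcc
The other windows shown hold 250 bases, and that of Insig1 is cut to 201, where the annotated gene begins. The Hmgcs1 window holds 3 CCAAT boxes and 1 sterol regulatory element, the Mvd window holds 2 CCAAT boxes, the Insig1 window holds 1 CCAAT box and 1 E-box, and the Cyp46a1 window holds 1 CCAAT box. Over windows of 250 bases and on both strands, CCAAT stood in 20 of the 23 members with a window (87%), against 37.5% of 27025 genes. The E-box stood in 6 of the 23 (26.1%, against 6.86% of genes) and TCACNCCAC in Hmgcs1 alone (4.35%, against 1.22%). A gene with several starts was counted once, and a match is only a match of letters. Fdps, Fdft1, Sqle, Stard4 and Abcg1 had no window.

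Summed counts per library lay between 33292014 and 68038785, with a median of 43867505. Libraries matched their labelled tissue: 5 markers of striatal spiny neurons summed to a mean of 5292 CPM (counts scaled to the library total) in 6-month WT striatum against 238 in cortex, and 3 markers of cortical neurons to 19.4 against 1147. All values below are CPM scaled by TMM factors, and a gene is said to rise or fall when its adjusted p-value was under 0.05 and its change was at least 1.2-fold, the bounds used by the study. Adjusted p-values are from edgeR's quasi-likelihood test with Benjamini-Hochberg adjustment over all genes tested. The labels place the ages in separate batches, so levels were compared within an age. Libraries differed in how level depended on transcript length: the slope of log2 CPM on log2 transcript length was below 0 in all 60 libraries of 12-month cortex (-0.482 to -0.0276) and lay between 0.0796 and 0.379 in 6-month striatum. Exons of Hmgcs1, Idi1, Fdps, Fdft1, Lss, Cyp51, Tm7sf2, Srebf1 and Scap overlap exons of another annotated gene, so their counts may hold some reads of that gene or have lost some to it.

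Htt, the targeted gene, checked the labels. In 6-month striatum, its median was 113 CPM in WT, 112 in WT + IPTG, 99.6 in LacQ140, 87.9 in LacQ140_A and 91.4 in LacQ140_2M. Its reads come from both alleles, so the lowering groups kept the signal of the normal allele. LacQ140_A was below WT in every tissue and age, by log2 fold changes of -0.40 and -0.52 in striatum and -0.60 and -0.72 in cortex at 6 and 12 months, and all 4 passed the test. Against LacQ140, the LacQ140_A differences were -0.21 and -0.25 in striatum and -0.20 and -0.49 in cortex, and only that of 12-month striatum reached an adjusted p under 0.05 (0.0490). LacQ140 itself lay below WT + IPTG, by -0.36 in 6-month cortex (adjusted p = 0.00428) and -0.40 in 12-month striatum (adjusted p = 9.03e-06).

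The cholesterol genes differed between the tissues of untreated WT mice. In 6-month WT, most synthesis genes were lower in striatum than in cortex, while the genes of export and removal were higher. Levels of different genes were set side by side per kilobase of the longest annotated transcript. The highest member in cortex was Hmgcs1, the synthase of an early step (72.5 CPM per kb). Cyp46a1 (57.8), Msmo1 (39.4), Pmvk (38.3) and Srebf2 (37.9) followed. In striatum, Cyp46a1 led with 97.4 CPM per kb, and Hmgcs1 (37.9) and Srebf2 (37.4) followed at levels closer to each other than their coefficients of variation of 20% and 12.4%. Soat1 was lowest in cortex at 3.01 CPM per kb, and in striatum it lay beside Hsd17b7, at 2.96 and 2.93. At 12 months, Cyp46a1 led in striatum (122 CPM per kb). In 12-month cortex, where every library had a slope on transcript length below 0, Cyp46a1 had the highest mean (46.8). Pmvk (42.7) and Msmo1 (40.5) lay within its coefficient of variation of 16.2%.

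**Figure D1:**
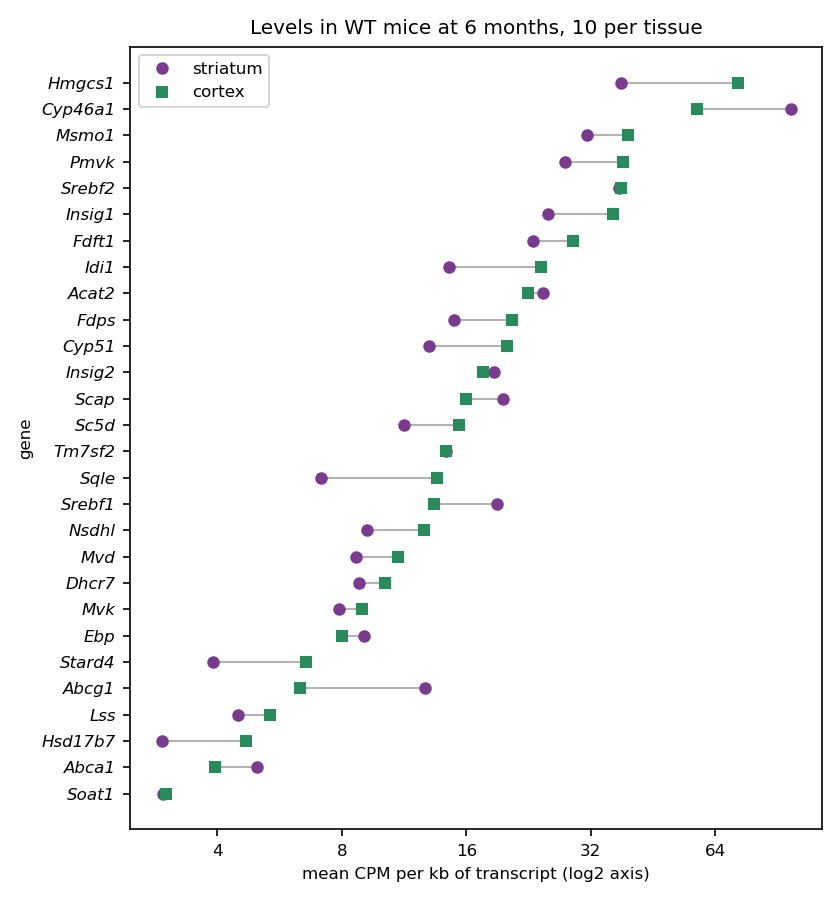
Mean level of each of the 28 genes in 6-month WT mice, in CPM per kilobase of the longest annotated transcript on a log2 axis. Circles mark striatum and squares cortex, with 10 mice per tissue. Hmgcs1 falls from 72.5 in cortex to 37.9 in striatum, while Cyp46a1 stands at 57.8 in cortex and 97.4 in striatum.

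With the mouse as a block, 20 of the 28 differed between the tissues, 15 lower and 5 higher in striatum, where 28.6% of the 37981 genes tested differed, 14.4% lower and 14.2% higher. The median over the members was -0.32 on the log2 scale, against 0.03 over expressed genes. Of the early enzymes, Hmgcs1 was lower by -0.96 ± 0.06 (SE), Idi1, which isomerizes the isoprenoid unit, by -0.77 ± 0.07, and Pmvk and Fdps by -0.50 and -0.48. Of the late enzymes, Sqle, the epoxidase that commits squalene to sterols, was lower by -0.95 ± 0.05, and Hsd17b7, Cyp51, Nsdhl, Sc5d and Msmo1 by -0.70, -0.65, -0.48, -0.47 and -0.36. Mvd (-0.34), Fdft1 (-0.34) and Lss (-0.29) were lower too. Insig1 (-0.55) and Stard4 (-0.76), a carrier of free cholesterol, followed the enzymes. The genes higher in striatum were Abcg1 (0.98 ± 0.06), which exports cholesterol to lipoproteins, Cyp46a1 (0.72 ± 0.05), Srebf1 (0.50), Abca1 (0.32), another exporter, and Scap (0.27). Scap missed the 1.2-fold bound under other size factors, another count filter and DESeq2. In bulk tissue, fewer cells of a type and less RNA per cell cannot be told apart, here and in every comparison below.

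The first comparison between groups asked whether IPTG alone changed expression in WT mice. In 6-month cortex it went with a lower level of sterol synthesis genes: 9 of the 28 were lower in WT + IPTG than in WT and none was higher. Over all 35987 genes, 0.609% were called in either direction and 0.358% as lower. In all, 22 of the 28 had a negative fold change, 18 had an unadjusted p under 0.05, all of them lower (11.9% of genes in either direction), and the median was -0.22, against -0.003 over expressed genes. Idi1 ran from 40.7 to 57.8 CPM (median 48.7) in WT + IPTG and from 48.96 to 110.3 (median 67.9) in WT (log2 fold change -0.61 ± 0.11 SE, adjusted p = 0.00296). The groups overlapped, although 9 of the 10 WT libraries lay above all WT + IPTG libraries. Hmgcs1 ran from 149 to 211 CPM (median 181) in WT + IPTG and from 178 to 366 (median 234) in WT (-0.47 ± 0.10, adjusted p = 0.00997). Acat2, which starts the pathway from acetyl units, ran from 37.3 to 44.2 CPM (median 41.1) and from 42.9 to 64.2 (median 50.3), a change of -0.33 ± 0.07 (adjusted p = 0.00619). Fdps, which joins isoprenoid units, fell by 0.34 on the log2 scale, from a median of 58.98 to 48.4 CPM.

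Among the late enzymes of the same cortex, Msmo1, a methylsterol oxidase, ran from 67.95 to 109 CPM (median 85.9) in WT + IPTG and from 86.1 to 158 (median 117) in WT, a change of -0.43 ± 0.09 (adjusted p = 0.00784). Cyp51, the lanosterol demethylase, ran from 44.1 to 78.3 CPM (median 59.1) and from 63.6 to 96.6 (median 78.3), a change of -0.42 ± 0.08 (adjusted p = 0.00537). Sqle fell by 0.33 on the log2 scale, from a median of 59.5 to 48.2 CPM. In each of these genes the groups overlapped, and 5 to 8 of the 10 WT libraries lay above every WT + IPTG library. Insig1, the SREBP target that retains Scap, ran from 56.96 to 83.7 CPM (median 72.3) in WT + IPTG and from 80.5 to 118 (median 95.9) in WT (-0.46 ± 0.09, adjusted p = 0.00593), and 8 of 10 WT libraries lay above all others. Stard4 fell by 0.35 on the log2 scale, from a median of 32.02 to 26.1 CPM. The regulators themselves did not pass the test, with Srebf2 at 0.00 ± 0.08 and Srebf1 at 0.08 ± 0.10, nor did Dhcr7, the reductase of the last step, at -0.28 ± 0.07 (adjusted p = 0.0530). Some glial markers moved in the same comparison: Ugt8a (-0.64) of 6 oligodendrocyte markers and Aqp4 (-0.40) and Gja1 (-0.28) of 6 astrocyte markers fell. The summed oligodendrocyte markers lay between 1594 and 2631 CPM in WT + IPTG and between 1768 and 2293 in WT, and the summed astrocyte markers between 2499 and 3326 and between 2639 and 3288. Their part in the result was not tested.

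**Figure D2:**
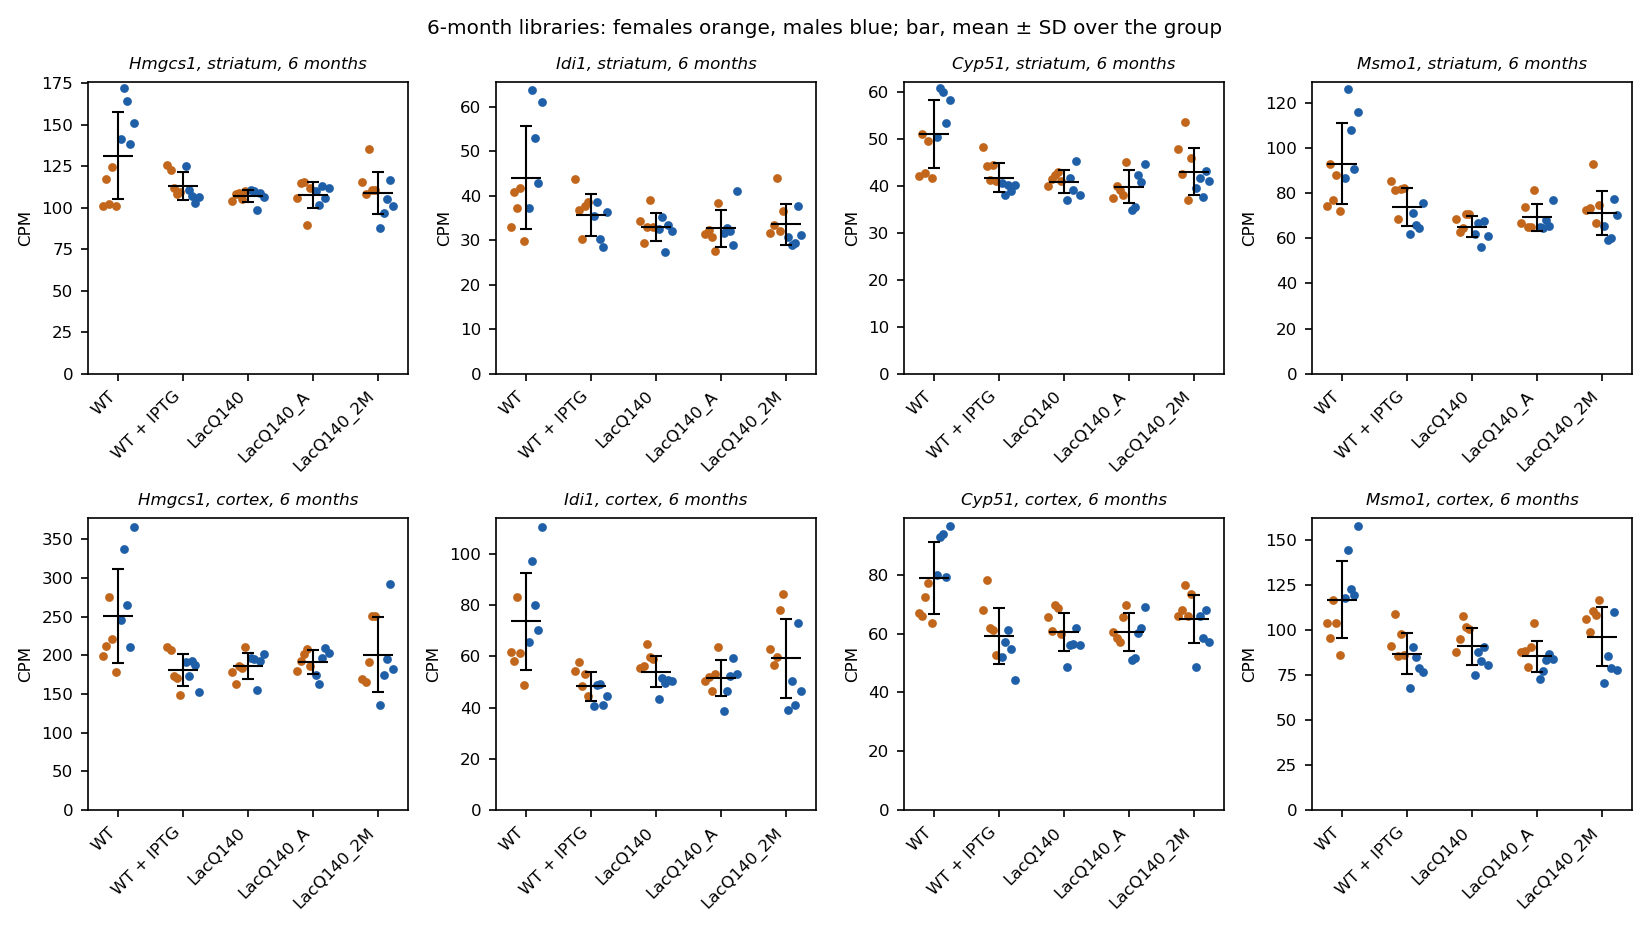
CPM of Hmgcs1, Idi1, Cyp51 and Msmo1 in each 6-month library by group and tissue, females in orange and males in blue, with the mean and SD of the group as a bar. In each panel the highest library is a WT male, as for Hmgcs1 in cortex, where WT reaches 366 CPM and WT + IPTG 211.

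In 6-month striatum, Cyp51 and Msmo1 fell with IPTG, 2 of the 28, while 0.584% of the 35808 genes were called and 0.204% as lower. Cyp51 ran from 38.1 to 48.3 CPM (median 40.8) in WT + IPTG and from 41.7 to 61.0 (median 50.8) in WT, a change of -0.29 ± 0.06 (adjusted p = 0.0131). Msmo1 ran from 61.8 to 85.4 CPM (median 73.4) and from 71.96 to 126 (median 89.5), a change of -0.34 ± 0.08 (adjusted p = 0.0157). In both genes, 7 of 10 WT libraries lay above all WT + IPTG libraries. Acat2 (-0.24, adjusted p = 0.0238) and Sqle (-0.24, adjusted p = 0.0424) missed the fold bound only, and 0.673% of genes had an adjusted p under 0.05. All 18 synthesis genes had a negative fold change, and the median over the 28 was -0.12, against -0.01 over expressed genes. The count of 2 changed with single mice: none was left without WT M2 or without WT M3, 1 was left without WT + IPTG M1, and 4 genes were called without WT F5. Oligodendrocyte markers did not fall here, and Mobp rose by 0.30 on the log2 scale.

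The WT group was also high beside the LacQ140 groups. In 6-month cortex, the WT mean was the highest of the 5 groups for 19 of the 28 members, 15 of them synthesis genes, and in 6-month striatum for 16, 13 of them synthesis genes. Averaged over the 18 synthesis genes on the scale of log2(CPM + 0.5), WT cortex libraries lay between 5.39 and 5.79, against 5.18 to 5.54 in WT + IPTG, 5.31 to 5.50 in LacQ140, 5.22 to 5.45 in LacQ140_A and 5.16 to 5.54 in LacQ140_2M. LacQ140_A mice, like WT mice, received no IPTG.

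When the sexes were fitted apart, a test chosen after the data were seen, the 6-month calls stood in males. In 6-month males, 14 of the 28 were lower in WT + IPTG in cortex, where 0.864% of all genes were called and 0.495% as lower, and 8 were lower in striatum, where 1.28% were called and 0.572% as lower. In 6-month females, edgeR called none in either tissue, nor any other gene (0% called), with 5 members in cortex (5.16% of genes) and 2 in striatum (7.3%) at an unadjusted p under 0.05. DESeq2 was not run by sex. Msmo1 in male cortex lay between 118 and 158 CPM in WT and between 67.95 and 90.6 in WT + IPTG, with no overlap among 5 and 5 mice (-0.73 ± 0.10, adjusted p = 3.05e-06). In female cortex it lay between 86.1 and 117 and between 85.7 and 109. Idi1 in male cortex lay between 65.5 and 110.3 CPM in WT and between 40.7 and 49.2 in WT + IPTG, again without overlap (-0.92 ± 0.14, adjusted p = 3.26e-05). The other genes lower in male cortex were Cyp51 (-0.72), Insig1 (-0.67), Hmgcs1 (-0.67), Mvd (-0.64), Fdps (-0.58), Dhcr7 (-0.56), Sqle (-0.50), Acat2 (-0.46), Stard4 (-0.43), Nsdhl (-0.39), Sc5d (-0.36) and Fdft1 (-0.35).

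**Figure D3:**
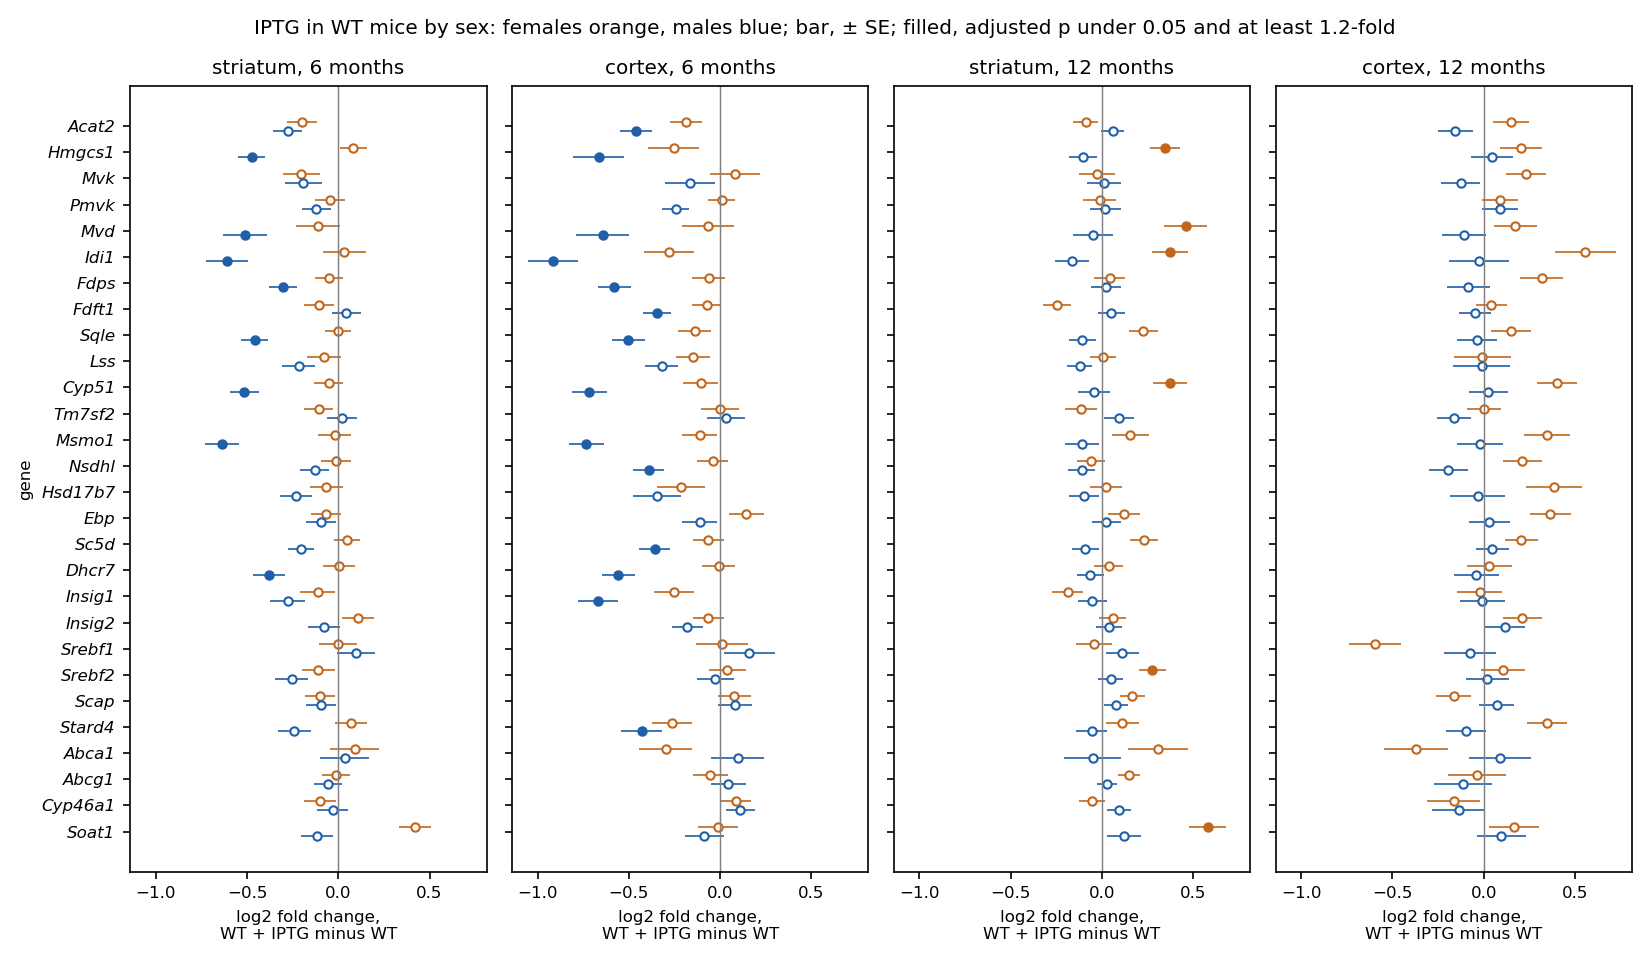
Log2 fold change of each gene between WT + IPTG and WT mice, by tissue and age, in females (orange) and males (blue), with ± SE as bars and filled symbols for genes past the adjusted p of 0.05 and 1.2-fold. At 6 months the males lie to the left, to -0.92 for Idi1 in cortex, and at 12 months the female striatum holds filled symbols to the right, as for Soat1 at 0.58.

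In male striatum, Hmgcs1 lay between 138 and 172 CPM in WT and between 103 and 125.3 in WT + IPTG, without overlap (-0.47 ± 0.08, adjusted p = 4.34e-05). In female striatum it lay between 101 and 124 in WT and reached 125.4 in WT + IPTG, and the female groups overlapped. Msmo1 (-0.64), Idi1 (-0.61), Cyp51 (-0.52), Mvd (-0.51), Sqle (-0.46), Dhcr7 (-0.38) and Fdps (-0.30) also fell in male striatum. The difference between the sexes (the male minus the female fold change) was itself tested: in striatum it passed for Hmgcs1 (-0.56 ± 0.11, adjusted p = 0.00873), Sqle (-0.46 ± 0.10, adjusted p = 0.0478) and Msmo1 (-0.62 ± 0.13, adjusted p = 0.0221), where 0.0922% of genes passed. In cortex edgeR called no member for it, with 14 of the 28 (4.06% of genes) at an unadjusted p under 0.05 and the smallest adjusted p at 0.0622 for Msmo1, and 0.025% of genes were called.

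Some synthesis genes were also higher in untreated WT males than in untreated WT females. In 6-month striatum, Idi1 (0.50), Hmgcs1 (0.49), Msmo1 (0.38), Sqle (0.32) and Cyp51 (0.32) were higher in males, 5 of the 28, against 0.441% of genes, and in 6-month cortex Fdps was (0.42, adjusted p = 0.0126), against 0.25%. In the methods of the study, cage mates shared sex, genotype and treatment. The cage and the group therefore cannot be told apart in any comparison between groups or of the sexes, those of LacQ140 and of the lowering groups included. At 12 months edgeR called no member between the sexes of WT, with 7 in striatum (9.69% of genes) and 2 in cortex (5.42%) at an unadjusted p under 0.05, and 0.0565% and 0.0203% of genes were called. The male WT M5 had the highest Hmgcs1 level of its group in cortex, at 366 CPM, and its striatum library also held the lowest spiny neuron marker sum of its group (3923 CPM, median 5357) and the highest cortical neuron marker sum (74.7 CPM, median 13.5). Without WT M5, 7 of the 28 remained called for IPTG in 6-month cortex and 2 in striatum.

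At 12 months the IPTG comparison looked different. In striatum, Soat1 alone was called, and it rose: it ran from 22.4 to 34.96 CPM (median 31.4) in WT + IPTG and from 21.0 to 31.7 (median 23.6) in WT, a change of 0.34 ± 0.08 (adjusted p = 0.0314), while 0.218% of the 35386 genes were called. The groups overlapped, with 4 of 10 WT + IPTG libraries above all WT libraries. This call was lost with a replicate block and when any 1 of 10 libraries was left out (WT F1, F2, F3, F5 or M1, or WT + IPTG F1 to F5). In cortex the main edgeR fit and DESeq2 called none of the 28, and the main fit called no other gene (0%). In it, 5 members and 5.8% of genes had an unadjusted p under 0.05. With the transcript length slope as a covariate, edgeR did call members in this cortex. By sex, 6 members rose in the striatum of 12-month WT + IPTG females, Soat1 (0.58), Mvd (0.46), Idi1 (0.37), Cyp51 (0.37), Hmgcs1 (0.35) and Srebf2 (0.28). In that comparison 8.22% of all genes were called. The same libraries differed in their slope on transcript length, at 0.210 to 0.280 in the 4 WT females and 0.356 to 0.390 in the 5 WT + IPTG females, without overlap, and its part in the result was not tested. Hmgcs1 there lay between 116.1 and 129 CPM in 5 WT + IPTG females and between 87.2 and 99.6 in 4 WT females, with no overlap. In 12-month males edgeR called no member in either tissue (0.00283% of genes in striatum and 0% in cortex), and none had an unadjusted p under 0.05 (4.34% and 4.02% of genes). In 12-month female cortex it called none either (0.087% of genes), with 11 at an unadjusted p under 0.05 (6.72% of genes).

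The age difference of the IPTG effect was tested in 1 fit over both ages, also chosen after the data were seen. In cortex 8 of the 28 had a higher fold change at 12 than at 6 months, against 0.685% of the 37355 genes: Idi1 (0.93 ± 0.18), Cyp51 (0.66 ± 0.12), Msmo1 (0.63 ± 0.13), Hmgcs1 (0.61 ± 0.13), Stard4 (0.50), Fdps (0.48), Sqle (0.41) and Sc5d (0.36). In striatum, Mvd (0.53 ± 0.14), Cyp51 (0.46 ± 0.10) and Srebf2 (0.34 ± 0.09) did so, against 0.559% of genes. The sex difference of the IPTG effect at 12 months (males minus females) passed in striatum for Idi1 (-0.54), Soat1 (-0.46), Hmgcs1 (-0.45) and Cyp51 (-0.42), where 4.38% of genes did, and in cortex for none by edgeR, with 10 (5.3% of genes) at an unadjusted p under 0.05 and 0.0058% of genes called.

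The second comparison asked what mutant Htt did, with IPTG given to both groups. It shares the WT + IPTG libraries with the IPTG comparison. In 12-month striatum the removal enzyme Cyp46a1 was lower in LacQ140 and single members of synthesis moved both ways: 4 of the 28 were called, 2 higher and 2 lower, while 9.44% of the 35386 genes were called, 4.58% as higher and 4.86% as lower. The members' count is to be read against that background. Cyp46a1 ran from 164 to 218 CPM (median 205) in LacQ140 and from 230 to 310 (median 261.1) in WT + IPTG, a change of -0.39 ± 0.05 (adjusted p = 7.12e-09). The groups did not overlap. Fitted by sex, it was lower in males (-0.48, with 7.67% of genes called) and in females (-0.30, with 7.99%). At 6 months its medians were 184 and 195 CPM and the change of -0.13 ± 0.06 did not pass (adjusted p = 0.227).

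The other calls of 12-month striatum were Msmo1, Hsd17b7 and Abca1. Msmo1 ran from 43.4 to 56.9 CPM (median 48.5) in LacQ140 and from 47.9 to 67.1 (median 64.4) in WT + IPTG, a change of -0.29 ± 0.07 (adjusted p = 0.00195). Hsd17b7, a sterol ketoreductase, ran from 12.0 to 17.3 CPM (median 13.6) and from 10.7 to 13.7 (median 11.6), a change of 0.28 ± 0.06 (adjusted p = 0.000353). Abca1 ran from 37.6 to 85.4 CPM (median 52.2) and from 29.9 to 52.5 (median 45.4), a change of 0.34 ± 0.12 (adjusted p = 0.0432). All 3 pairs of groups overlapped. The Abca1 call was lost with DESeq2, with a sex covariate, with a replicate block and in 9 of 19 omissions of 1 library, and without LacQ140 M3 or without LacQ140 M4 only 2 of the 4 calls were left. A further 5 members, 9 in all, had an adjusted p under 0.05 (14% of genes) but missed the fold bound: Srebf2 (-0.23), Insig1 (-0.22) and Scap (-0.14) were lower, and Mvk (0.20), the mevalonate kinase, and Lss (0.18), which forms the sterol rings, were higher. The median over the 28 was -0.05, against 0.004 over expressed genes.

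**Figure D4:**
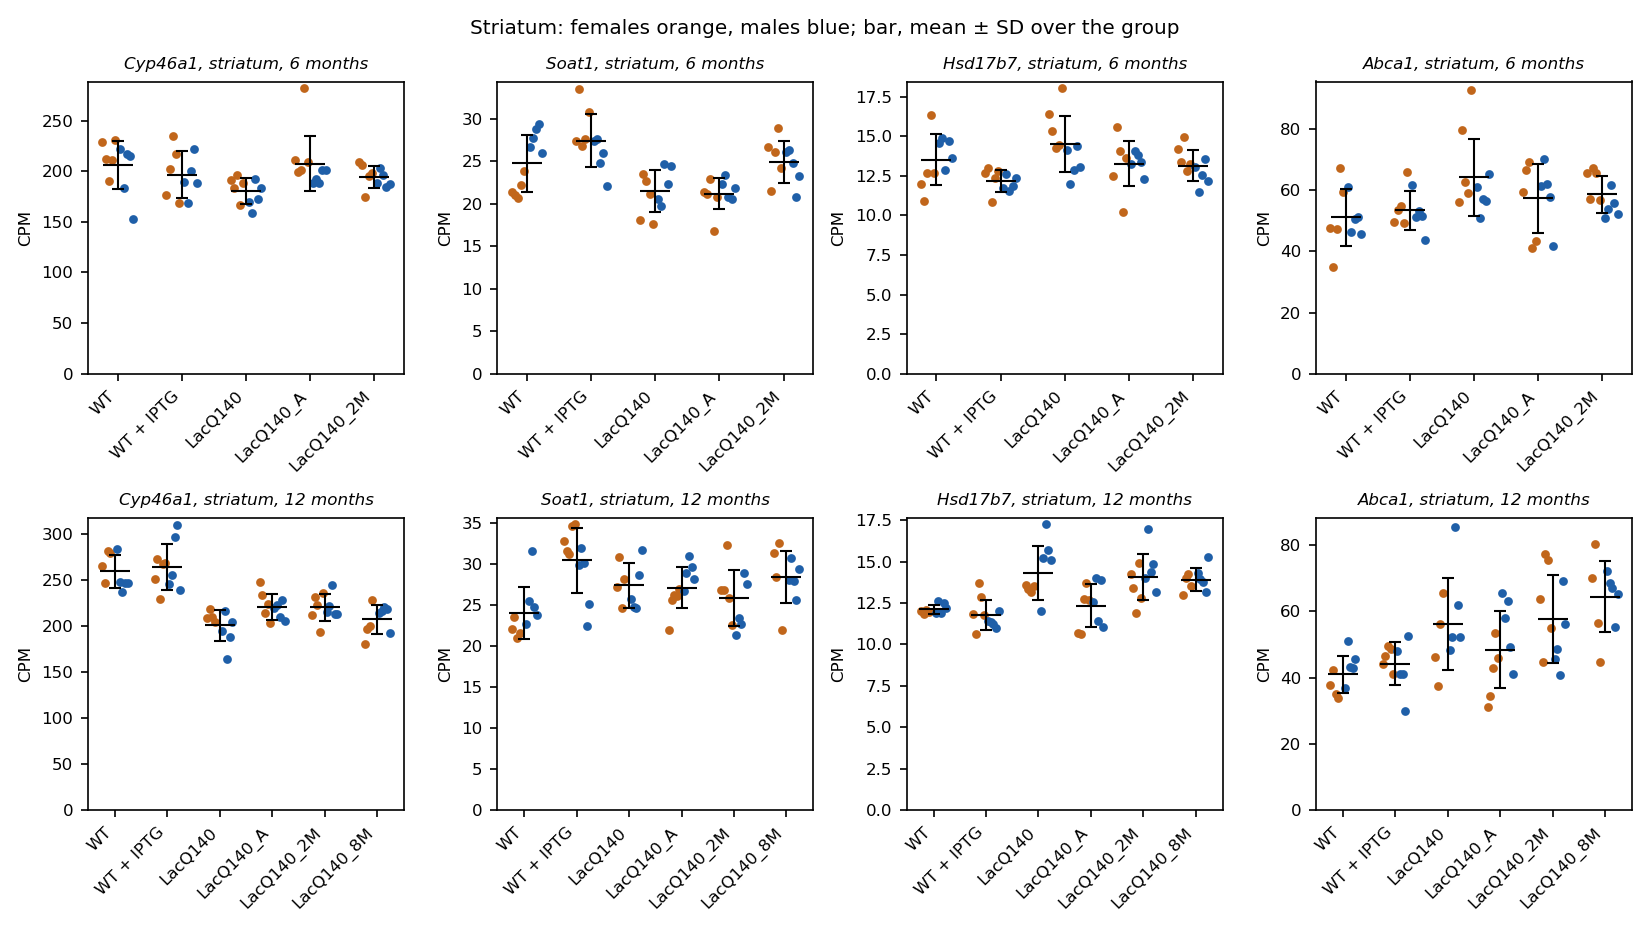
CPM of Cyp46a1, Soat1, Hsd17b7 and Abca1 in striatum libraries by group and age, females in orange and males in blue, with the mean and SD of the group as a bar. At 12 months every LacQ140 library of Cyp46a1, at 218 CPM or less, lies below every WT + IPTG library, at 230 CPM or more.

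Cell type markers moved with these results. In 12-month striatum all 5 spiny neuron markers fell in LacQ140, by -0.78 for Ppp1r1b to -1.30 for Penk on the log2 scale, and their sum lay between 2545 and 3227 CPM against 4539 to 7165 in WT + IPTG. Of the oligodendrocyte markers, 3 of 6 fell (Mobp by -0.41, Mal by -0.45 and Ugt8a by -0.49), and the sum of the 6 lay between 2651 and 4415 CPM against 3491 to 4975. Of the other lists, Aldoc of 6 astrocyte, Tmem119 of 5 microglia and Flt1 of 4 endothelial markers fell (-0.28, -0.32 and -0.26), and Stmn2 of 4 neuronal markers rose (0.71). Their sums lay between 1791 and 2063 CPM against 1970 and 2369 for astrocytes, and between 371.6 and 420 against 404.3 and 469 for microglia. The part of these markers in the results on Cyp46a1 and the enzymes was not tested. The library LacQ140 M2 held by far the highest cortical neuron marker sum of its group (mean 41.2 ± 97.9 CPM, SD, n = 9, with a median of 7.39), and without it the same number of members, 4, was called, with Cyp46a1 at -0.41.

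In 6-month striatum Soat1 alone was called in LacQ140, 1 of the 28, against 7.93% of the 35808 genes. It ran from 17.6 to 24.7 CPM (median 21.8) in LacQ140 and from 22.1 to 33.6 (median 27.4) in WT + IPTG, a change of -0.35 ± 0.07 (adjusted p = 0.000306). The groups overlapped, with 9 of 10 WT + IPTG libraries above all LacQ140 libraries. Mvk (0.26), Hsd17b7 (0.25) and Lss (0.25) had an adjusted p under 0.05 (11.8% of genes) and missed the fold bound, and the same 3 were higher with an adjusted p under 0.05 at 12 months. All 5 spiny neuron markers and 3 of 6 oligodendrocyte markers fell at this age too, the oligodendrocyte sum lying between 2926 and 3752 CPM against 4035 to 5786, without overlap. Of the other lists, 3 of 5 microglia markers fell (Cx3cr1, P2ry12 and Tmem119, by -0.27 to -0.29), with a sum of 347 to 417.6 CPM against 405.5 to 496, as did Aqp4 of 6 astrocyte markers, with a sum of 1879 to 2330 CPM against 2336 to 2894, and Neurod6 of 3 cortical neuron markers. The part of these markers in the Soat1 result was not tested. By sex, the call stood in females (-0.50, with 6.07% of genes called) and not in males (-0.19, with 3.06%), where 0 members were called by edgeR and 5 had an unadjusted p under 0.05 (13.3% of genes). The sex difference of this effect was not tested.

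In 6-month cortex Soat1 was again the only member called, against 0.881% of the 35987 genes. It ran from 17.0 to 22.0 CPM (median 19.6) in LacQ140 and from 21.5 to 28.2 (median 23.8) in WT + IPTG, a change of -0.31 ± 0.08 (adjusted p = 0.0323). Here 9 of 10 libraries of each group lay outside the range of the other group. The call was lost in 12 of 20 omissions of 1 library (LacQ140 F1, F3, F4, F5, M2 or M3, or WT + IPTG F1, F2, F3, M1, M2 or M3), with the fold change between -0.33 and -0.28. Fitted by sex, edgeR called no member in females (0.114% of genes) or males (0.0834%), with 4 and 3 at an unadjusted p under 0.05 (7.32% and 6.14% of genes). With the sexes together, no cell type marker was called in this cortex. An adjusted p under 0.05 was reached by 1 of 6 astrocyte and 1 of 4 endothelial markers. The list medians were -0.14 and -0.16, and that of the neuronal markers was 0.01. The part of these markers in the Soat1 result was not tested. In 12-month cortex edgeR and DESeq2 called none of the 28, with 6 members and 8.68% of genes at an unadjusted p under 0.05, and 0.0899% of the 34493 genes were called.

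The tissue difference of the LacQ140 effect was tested with the mouse as a block. At 12 months it passed for Cyp46a1 (-0.45 ± 0.10, adjusted p = 0.00389) and Srebf2 (-0.33 ± 0.09, adjusted p = 0.0232), both lower in striatum relative to cortex, against 2.8% of the 37294 genes. At 6 months it passed for Insig1 (-0.30 ± 0.07, adjusted p = 0.0113), against 1.12% of the 37981 genes. In the main edgeR fit, the age difference of the LacQ140 effect passed for no member in either tissue. In each, 5 had an unadjusted p under 0.05 (12.5% of genes in striatum and 6.09% in cortex). The smallest adjusted p was 0.0517, for Cyp46a1 in striatum (-0.27), where 2.07% of genes passed, and in cortex 0.00268% did. With another count filter, or with the transcript length slope as a covariate, a member did pass in striatum.

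**Figure D5:**
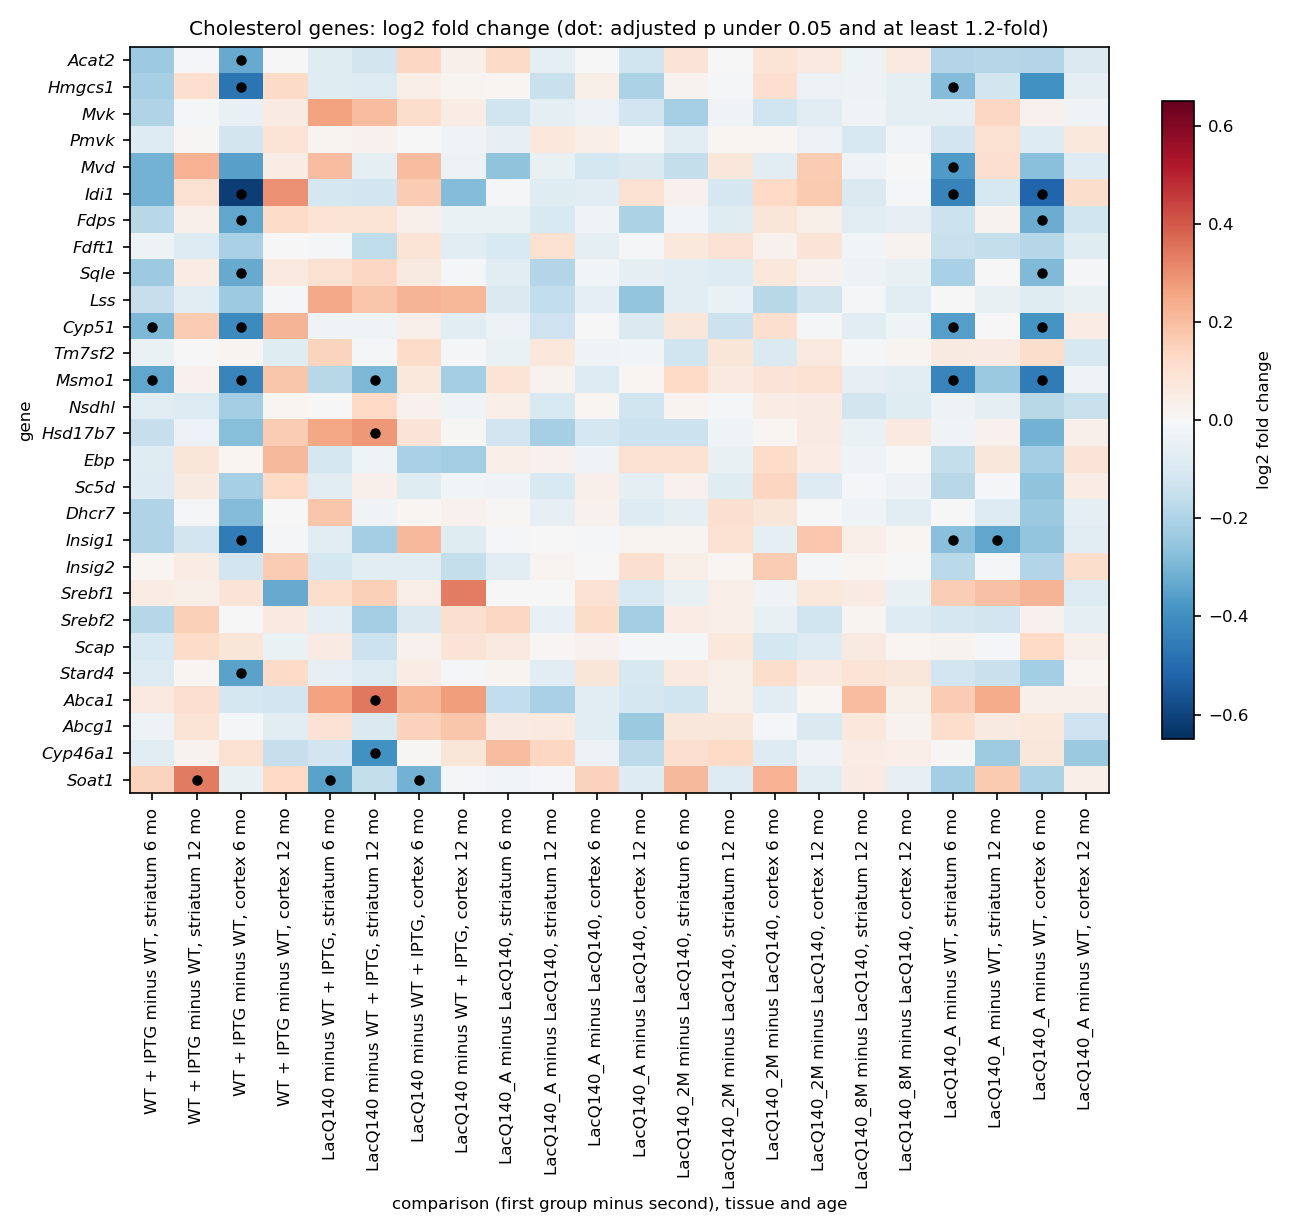
Log2 fold change of the 28 genes as colour in the 22 comparisons of 2 groups within a tissue and age, both sexes together, the first group minus the second, with a dot where the adjusted p was under 0.05 and the change at least 1.2-fold. Most dots stand in the 6-month columns of IPTG and of LacQ140_A against WT, up to 9 in cortex, and none stands in the 10 columns that set a lowering group against LacQ140.

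The third set of comparisons asked whether lowering mutant Htt changed these genes relative to LacQ140. Both edgeR and DESeq2 called 0 of the 28 in all 10 comparisons of LacQ140_A, LacQ140_2M and LacQ140_8M with LacQ140, which share the LacQ140 libraries of their tissue and age. The lowering groups had also been off IPTG, so the state of the allele and of the treatment cannot be told apart in them. In striatum, 1.88% of genes were called for LacQ140_A and 1.26% for LacQ140_2M at 6 months, and 0.91%, 0.608% and 0.00565% for LacQ140_A, LacQ140_2M and LacQ140_8M at 12 months. In cortex those shares were 0.00834% and 0% at 6 months and 0.0435%, 0.0841% and 0% at 12 months. Members at an unadjusted p under 0.05 numbered 4, 5, 0 and 5 for LacQ140_A in 6- and 12-month striatum and 6- and 12-month cortex. For LacQ140_2M they numbered 4, 2, 4 and 0 in the same order, and for LacQ140_8M 1 in striatum and 0 in cortex. The background shares at that p were 12%, 10.4%, 7.47% and 13.2% for LacQ140_A, 11.1%, 8.32%, 9.72% and 5.51% for LacQ140_2M, and 5.13% and 2.83% for LacQ140_8M.

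Values of the genes called in LacQ140 follow; none of them passed the test between a lowering group and LacQ140. In 12-month striatum, Cyp46a1 had a median of 205 CPM in LacQ140, 220.5 in LacQ140_A, 219 in LacQ140_2M and 214 in LacQ140_8M, against 261.2 in WT + IPTG and 247.9 in WT. The changes against LacQ140 were 0.14 ± 0.05 (adjusted p = 0.230), 0.13 ± 0.05 (adjusted p = 0.349) and 0.05 ± 0.05 (adjusted p = 0.864). All LacQ140_8M libraries, between 180.3 and 227.7 CPM, lay below the lowest WT + IPTG library at 230. At 6 months, LacQ140_A had 201 CPM at the median against 184 in LacQ140 (0.20 ± 0.06, adjusted p = 0.0726). Hsd17b7 in 12-month striatum had medians of 13.6 CPM in LacQ140, 12.6 in LacQ140_A, 14.1 in LacQ140_2M and 13.96 in LacQ140_8M, and the LacQ140_A difference of -0.22 ± 0.06 was the nearest of all to the threshold (adjusted p = 0.0535). Msmo1 in 12-month striatum had medians of 48.5 CPM in LacQ140, 50.3 in LacQ140_A, 49.4 in LacQ140_2M and 46.9 in LacQ140_8M, against 64.4 in WT + IPTG. Abca1 had medians of 52.2 CPM in LacQ140, 47.6 in LacQ140_A, 55.6 in LacQ140_2M and 67.1 in LacQ140_8M, against 45.4 in WT + IPTG, and the LacQ140_8M difference from LacQ140 was 0.20 ± 0.12 (adjusted p = 0.864). Its groups overlapped throughout. Soat1 in 6-month striatum had medians of 21.8 CPM in LacQ140, 21.3 in LacQ140_A and 25.4 in LacQ140_2M, the latter at 0.21 ± 0.07 (adjusted p = 0.151). In 6-month cortex its medians were 19.6, 22.0 and 23.1 CPM, and the LacQ140_2M difference was 0.23 ± 0.08 (adjusted p = 0.355).

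The comparison of LacQ140_A with WT, both without IPTG, asked what differed in mice whose mutant allele had never been induced. It shares the WT libraries with the IPTG comparison and so the high 6-month values of those libraries. In 6-month striatum 6 of the 28 were lower in LacQ140_A, against 0.91% of genes called and 0.48% as lower: Idi1 (-0.43 ± 0.09, adjusted p = 0.00776), Msmo1 (-0.43 ± 0.08), Mvd (-0.37), Cyp51 (-0.36), Hmgcs1 (-0.28) and Insig1 (-0.27). Msmo1 there ran from 64.5 to 81.5 CPM (median 66.3) in LacQ140_A and from 71.96 to 126 (median 89.5) in WT, with 7 of 10 WT libraries above all LacQ140_A libraries. In 6-month cortex 5 were lower, against 0.425% of genes called and 0.275% as lower: Idi1 (-0.51 ± 0.11, adjusted p = 0.0244), Msmo1 (-0.45), Cyp51 (-0.38), Fdps (-0.32) and Sqle (-0.29). By sex, 8 members in striatum (0.768% of genes) and 9 in cortex (0.547%) were lower in males. In females edgeR called none, with 3 and 1 at an unadjusted p under 0.05 (5.56% and 4.85% of genes), and 0.0391% and 0.00556% of genes were called. The median over the 28 was -0.13 in striatum and -0.20 in cortex, against -0.01 over expressed genes in both. The Insig1 call in striatum was lost with the transcript length slope as a covariate (-0.25). Of the cell type markers, 1 of 5 spiny neuron and 2 of 6 oligodendrocyte markers fell in striatum, the oligodendrocyte sum lying between 3223 and 3931 CPM against 3520 to 5080 in WT. In cortex 2 of 6 astrocyte markers and 1 of 6 oligodendrocyte markers fell, the astrocyte sum lying between 2386 and 3055 CPM against 2639 to 3288. Their part in the result was not tested.

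At 12 months this comparison gave 1 call in striatum, against 3.15% of genes. Insig1 ran from 36.3 to 51.4 CPM (median 43.6) in LacQ140_A and from 48.4 to 58.4 (median 53.5) in WT, a change of -0.34 ± 0.06 (adjusted p = 3.44e-05). The groups overlapped by a single LacQ140_A library, 9 of 10 lying below all WT libraries. Cyp46a1 (-0.23, adjusted p = 0.00112), Msmo1 (-0.24) and Acat2 (-0.19) had an adjusted p under 0.05 below the fold bound (4.85% of genes passed that p). By sex, 2 members were called in males (1.86% of genes) and 1 in females (2.24%). For Cyp46a1, 9 of 10 LacQ140_A libraries lay below all WT libraries, at 203 to 247.9 CPM against 236.4 to 284. All 5 spiny neuron markers fell in this comparison (median -0.53), their sum lying between 3317 and 4542 CPM against 5449 to 6571 in WT, as did 1 of 6 oligodendrocyte markers, and 1 of 4 neuronal markers rose. Their part in the result was not tested. In 12-month cortex edgeR and DESeq2 called none, with 1 member and 5.79% of genes at an unadjusted p under 0.05, and 0.0174% of genes were called.

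Within groups, most pairs of synthesis genes were positively correlated across mice. After the group means were removed, the median Pearson correlation over the 153 pairs of 18 synthesis genes was 0.26 in 6-month striatum (50 libraries), 0.44 in 6-month cortex (50), 0.23 in 12-month striatum (57) and 0.33 in 12-month cortex (60). Without the WT group it was 0.18, 0.45, 0.24 and 0.35. Sqle had the highest median correlation with the other synthesis genes in 6-month cortex (0.71), followed by Fdps (0.61), and Srebf1 the lowest (-0.42). Hmgcs1 correlated with Stard4, outside the enzymes, by 0.92, 0.71, 0.61 and 0.64 in 6-month cortex and striatum and 12-month cortex and striatum. Females and males of a group were centred together, so a difference between the sexes enters the correlations. The points of a correlation also share libraries, depth and the slope on transcript length, so these are descriptions.

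Other genes of lipid metabolism were counted for context. The fatty acid arm, 9 genes that SREBP also controls, held 1 call in LacQ140: in 12-month striatum the desaturase Fads2 fell (-0.31 ± 0.07, adjusted p = 0.000211), and 5 of the 9 had an adjusted p under 0.05, all of these lower, where 9.44% of all genes were called and 14% had such a p. Scd1, another desaturase, fell with IPTG in 6-month WT cortex (-0.30 ± 0.07, adjusted p = 0.0305). Of 15 further genes of sterol handling, 3 rose and 2 fell in 12-month LacQ140 striatum, against the same 9.44%. In LacQ140_A against WT, 2 of the 15 rose in 12-month striatum (3.15% of genes called) and 1 fell in 6-month striatum (0.91%). The genes called in 12-month LacQ140 striatum were Gramd1c (0.45), Abca7 (0.41) and Cyp27a1 (0.29), a sterol hydroxylase, which rose. Lcat (-0.44), which esterifies cholesterol in lipoproteins, and Gramd1b (-0.36), a sterol transfer protein, fell there. In 6-month LacQ140 cortex Mylip, a ligase that degrades lipoprotein receptors, rose (0.27 ± 0.07, adjusted p = 0.0301). None of either list was called between a lowering group and LacQ140 by edgeR.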

How the data were processed

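RNA was sequenced by the authors as paired-end reads on an Illumina instrument, and the submitters' processing notes name the mouse build GRCm38; the aligner and quantifier are not given in the sources used here. The deposited values are expected counts per gene, estimated by the authors from those reads, one column per library, in a table per age and without normalization by the authors. They were rounded to whole numbers. Genes with at least 1 count in a tissue and age were kept and scaled by TMM, and 1 model per tissue and age, holding every group, was fitted in edgeR 4.0.16 (quasi-likelihood F-test, R 4.3.3). A gene was called at a Benjamini-Hochberg adjusted p under 0.05 over all genes tested and a change of at least 1.2-fold; the study used DESeq2 with the same bounds. Differences between tissues used the mouse as a block and only mice with both tissues. Fits by sex and over both ages, each with edgeR, were added after the data were seen. Summaries were made with Python 3.11.15, pandas 2.3.3 and numpy 2.4.6.

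The members and the other gene lists were chosen with earlier results of these data known. Every member was assigned a role, with values per group for members called for IPTG or LacQ140 in the fits of both sexes together. Levels and calls were not listed in full for each member. Expressed genes are those with a mean log2 CPM of at least 1. Alternatives were DESeq2 1.42.0, RLE size factors, the filterByExpr filter, a sex covariate, a replicate block, a covariate for the slope on transcript length, and no fold bound. In the IPTG and LacQ140 comparisons, each library of the compared groups was also left out in turn. This was done for no other comparison, so not for those of the lowering groups. Within a tissue and age each library comes from a separate mouse, striatum and cortex libraries come from the same mice, and replicate numbers (F1 to F5, M1 to M5) did not pair mice across groups. No pair of libraries within a group agreed within sampling noise (lowest chi-square per degree of freedom 6.50), so all were counted. The fits were tested on simulated counts with known changes. Of 54532 genes, 54495 matched GENCODE vM21 by identifier, used for lengths and positions. Library totals set the precision, and intervals are SE of the fitted log2 fold change. Of the cell type markers first listed, 1 oligodendrocyte and 1 cortical neuron gene are not reported here and were left out of the counts and sums.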

Additional observations from a re-analysis of the deposited data

Results flagged for a closer look

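Outlying libraries were sought in 53 gene-and-group combinations of 9 or 10 mice with Dixon's 95% critical value, which chance alone passes in about 1 of 20 groups, and 3 stood apart. These were Insig1 in 6-month striatum of LacQ140_A F3 at 49.4 CPM, Soat1 in 12-month striatum of WT M3 at 31.7 CPM and Abca1 in 12-month striatum of WT + IPTG M4 at 29.9 CPM.

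Effects that differed between tissues, ages or sexes by a test of the difference itself follow as log2 differences. The LacQ140 effect was lower in striatum than in cortex for Insig1 at 6 months (-0.30) and for Srebf2 (-0.33) and Cyp46a1 (-0.45) at 12 months. The IPTG effect in WT was higher at 12 than at 6 months in striatum for Mvd (0.53), Cyp51 (0.46) and Srebf2 (0.34). In cortex it was so for Idi1 (0.93), Cyp51 (0.66), Msmo1 (0.63), Hmgcs1 (0.61), Stard4 (0.50), Fdps (0.48), Sqle (0.41) and Sc5d (0.36). It was lower in males than in females in 6-month striatum for Msmo1 (-0.62), Hmgcs1 (-0.56) and Sqle (-0.46), and in 12-month striatum for Idi1 (-0.54), Soat1 (-0.46), Hmgcs1 (-0.45) and Cyp51 (-0.42).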

How the results depend on the processing

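For members called between groups or tissues with both sexes in the main fit, no fold change reversed under the alternatives run. Counts of members called moved by over 1.5 times in the following. Without the fold bound, the count became 4 for IPTG in 6-month striatum (from 2), 9 and 4 for LacQ140 in 12- and 6-month striatum (from 4 and 1) and 4 for LacQ140_A against WT in 12-month striatum (from 1). With the transcript length slope as a covariate, it became 2 for IPTG in 12-month cortex (from 0), 2 for LacQ140 in 6-month striatum (from 1) and 1 for the age difference of the LacQ140 effect in striatum (from 0), which was 1 with filterByExpr too. With the replicate block it became 0 for IPTG in 12-month striatum (from 1) and 3 for LacQ140_A against WT in 6-month cortex (from 5, Fdps and Sqle being lost), and the block moved no other count of members by over 1.5 times. It also cost the calls of Abca1 in 12-month LacQ140 striatum and Hmgcs1 in LacQ140_A against WT in 6-month striatum. The numbers did not pair the libraries: the mean correlation of same-numbered libraries was 0.0209 and 0.0646 in 6- and 12-month striatum and 0.0393 and 0.0628 in cortex, and 2 of 50, 5 of 57, 8 of 50 and 11 of 60 libraries correlated best with their own number. In females alone the count was 0 for IPTG in 6-month cortex and 0 in 6-month striatum, 6 in 12-month striatum, 3 and 0 for LacQ140 in 6-month striatum and cortex, and 0 for LacQ140_A against WT in 6-month striatum and cortex. In males alone it was 14, 8 and 0 for those IPTG comparisons, 0 and 0 for LacQ140, and 9 and 2 for LacQ140_A against WT in 6-month cortex and 12-month striatum. These fits hold fewer samples. Leaving out 1 library gave 7 to 11 for IPTG in 6-month cortex, 0 to 4 in 6-month striatum and 0 to 1 in 12-month striatum. For LacQ140 it gave 1 to 3 in 6-month striatum (3 without LacQ140 M2, M3 or M5 or WT + IPTG F4), 0 to 1 in 6-month cortex and 2 to 4 in 12-month striatum. Of the other alternatives to single gene calls, 238 kept the call and 11 lost it, and 313 and 42 did so when a library was left out. The causes were not tested. The SE, printed with some of the fold changes, limits what 9 or 10 mice per group can resolve. The fits by sex hold 4 or 5 mice per group.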
